A study of Homo sapiens with 18 samples.

Results

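The levels of 10 genes of epithelial cell junctions were followed across 6 groups of MCF10A cells, an immortalised, non-tumorigenic line of human breast epithelium. They were CLDN1, CLDN4, CLDN7 and OCLN of the tight junction membrane, its plaque protein TJP1, the adhesion molecule EPCAM, P-cadherin (CDH3), and the desmosomal cadherins DSG2, DSG3 and DSC2. The genes were taken by symbol from the annotation of the array's probe sets, and all 10 were measured among the 18405 genes tested. Of these, 9 had a probe set of their own, while the OCLN probe set is annotated also to the pseudogene OCLNP1 and cannot tell the pair apart, so its values are given as OCLN/OCLNP1.

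Tight junctions seal the space between neighbouring epithelial cells near their apical side. Claudins form the strands and set which ions and solutes pass, occludin (OCLN) lies in the same strands, and TJP1, also called ZO-1, ties the strands to actin. Desmosomes lie lower on the lateral side, where desmogleins (DSG) and desmocollins (DSC) join cells and anchor keratin filaments. In the mammary gland DSG3 and CDH3 are known from the basal, myoepithelial layer, and EPCAM, which binds claudin-7, is known as a marker that is higher in luminal cells.

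The 18 Affymetrix whole-transcript arrays held 3 arrays per group, and each group is called by its label. Cells received lentivirus with a hairpin labelled shLATS1B (against LATS1) or shLATS1+2 (against LATS1 and LATS2) and then a control cDNA. Cells with a non-targeting hairpin, shNT, received YAP/TAZ and ESR1 cDNA together, YAP/TAZ cDNA alone, ESR1 cDNA alone or the control cDNA, and the last of these are the control arrays. All groups share the lentiviral infection, puromycin selection, transient lipid transfection and culture in an estrogen-containing medium, and the share of cells that took up a cDNA is not given. In the Hippo pathway, the LATS kinases hold back the coactivators YAP and TAZ, and ESR1 encodes estrogen receptor alpha. LATS1 averaged 7.66 in the arrays labelled shLATS1B and 7.76 in those labelled shLATS1+2, against 8.86 in the control arrays (log2 intensity). LATS2 averaged 7.82 in the arrays labelled shLATS1+2, against 7.73 in the control arrays, and did not pass the test there (adjusted p = 0.371), so the groups labelled shLATS1B and shLATS1+2 are called the shLATS-labelled groups. YAP1 and WWTR1, which encodes TAZ, averaged 10.88 and 9.99 in the arrays labelled YAP/TAZ ESR1 and 10.79 and 9.44 in those labelled YAP/TAZ, against 10.84 and 9.57 in the control arrays. WWTR1 averaged 10.01 in the arrays labelled shLATS1B, which received no YAP/TAZ cDNA. Where these probe sets lie relative to the transfected cDNA was not analysed here. ESR1 averaged 6.47 in the arrays labelled ESR1 and 6.03 in those labelled YAP/TAZ ESR1, against 5.52 in the control arrays, and it averaged 6.37 and 6.40 in the arrays labelled shLATS1B and shLATS1+2, which received no ESR1 cDNA.

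The arrays fell into a pair of divisions on the first principal component, which held 47.3% of the variance between arrays. Those labelled shLATS1B, shLATS1+2 and YAP/TAZ ESR1 scored 9.83 to 22.7, and those labelled YAP/TAZ, ESR1 and control scored -23.0 to -10.3. The labels give no batch, so any difference in handling between these divisions and the effect of the groups cannot be told apart in comparisons across them. All 8 measured epithelial markers of the 12 listed lay above the dim cutoff of 5.21 in every group. Of 8 fibroblast markers, 2 fell and 0 rose in the arrays labelled shLATS1B, shLATS1+2 and YAP/TAZ ESR1 against the control arrays (limma, adjusted p under 0.05). DCN averaged 4.52, 4.55 and 4.54 there and FAP 4.85, 4.89 and 4.80, against 6.67 and 6.31 in the control arrays. With YAP/TAZ and with ESR1 cDNA alone 1 of the 8 fell, and DCN averaged 5.13 and 5.06. The summed level of the 8 was 41.3 to 41.4, 41.1 to 41.4 and 41.0 to 41.3 in those groups, 43.2 to 43.9 with YAP/TAZ, 42.9 to 43.7 with ESR1 and 43.7 to 45.6 in the control arrays. LUM and THY1 lay below the dim cutoff in every group, as did the leukocyte markers PTPRC, CD3E and MS4A1 and the endothelial markers CDH5, VWF and KDR. COL1A1 (group means 6.40 to 6.56), COL1A2 and COL3A1 of the fibroblast list lay above it in every group. So did CD8A, CD79A and NKG7 of the leukocyte list and CLDN5 (6.10 to 6.25) of the endothelial list. The endothelial marker PECAM1 averaged 6.28, 6.58 and 6.01 in the arrays labelled shLATS1B, shLATS1+2 and YAP/TAZ ESR1, where 1 of 7 endothelial markers rose, against 5.73 in the control arrays. The leukocyte list's CD68, which many cell types express, averaged 10.53, 10.33 and 10.58 in the same 3 groups, against 9.62 in the control arrays. Of the 8 epithelial markers 2 rose and 4 fell in the arrays labelled shLATS1B and in those labelled shLATS1+2, 3 rose and 4 fell with both cDNAs, 1 fell with YAP/TAZ cDNA, and 1 rose and 2 fell with ESR1 cDNA. Beside these and the other marker counts, 24%, 24.8%, 29.4%, 7% and 19% of all genes were called in these groups, in that order. KRT14, a keratin of basal cells, averaged 7.85, 8.06 and 8.15 in the first 3 of these groups, against 10.43 in the control arrays. KRT5, another basal keratin of the list, averaged 12.41, 12.27 and 12.33 there, against 12.68. KRT8 and KRT18, keratins of luminal cells, averaged 12.17, 11.98 and 11.72 and 12.47, 12.33 and 12.16 there, against 11.07 and 11.84. The part of these shifts in the results below was not tested.

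Promoter windows are shown for CLDN1 and DSG3, which had the widest ranges of group means of the 10, and for OCLN and CLDN7 as tight junction genes whose windows hold the E-box, a motif searched because it is bound by repressors of the SNAI family. The windows run from 250 bases before to 50 bases after a transcription start, are written 5′ to 3′ on the gene's strand, and come from RefSeq on GRCh38.p14. They lie at chr3:190322397-190322696 on the minus strand for CLDN1, chr5:69492540-69492839 on the plus strand for OCLN, chr17:7262429-7262728 on the minus strand for CLDN7 and chr18:31447491-31447790 on the plus strand for DSG3. Capitals mark the E-box CACCTG or, on the other strand, CAGGTG.
CLDN1: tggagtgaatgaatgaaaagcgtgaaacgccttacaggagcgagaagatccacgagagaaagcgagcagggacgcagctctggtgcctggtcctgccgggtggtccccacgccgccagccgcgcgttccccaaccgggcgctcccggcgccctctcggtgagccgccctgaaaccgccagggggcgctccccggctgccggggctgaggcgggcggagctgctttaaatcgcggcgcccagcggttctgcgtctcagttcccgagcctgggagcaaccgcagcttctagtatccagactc
OCLN: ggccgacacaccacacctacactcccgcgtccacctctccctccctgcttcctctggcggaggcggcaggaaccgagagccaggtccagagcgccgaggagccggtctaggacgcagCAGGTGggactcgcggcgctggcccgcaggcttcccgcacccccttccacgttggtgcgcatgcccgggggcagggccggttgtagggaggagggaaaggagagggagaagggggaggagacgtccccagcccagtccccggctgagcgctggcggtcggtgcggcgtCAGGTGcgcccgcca
CLDN7: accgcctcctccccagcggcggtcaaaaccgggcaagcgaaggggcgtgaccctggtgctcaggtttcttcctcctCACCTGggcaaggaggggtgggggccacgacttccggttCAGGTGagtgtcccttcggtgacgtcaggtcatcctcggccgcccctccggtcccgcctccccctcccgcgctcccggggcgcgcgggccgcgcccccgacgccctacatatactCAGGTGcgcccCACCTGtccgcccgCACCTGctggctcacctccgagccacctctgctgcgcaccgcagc
DSG3: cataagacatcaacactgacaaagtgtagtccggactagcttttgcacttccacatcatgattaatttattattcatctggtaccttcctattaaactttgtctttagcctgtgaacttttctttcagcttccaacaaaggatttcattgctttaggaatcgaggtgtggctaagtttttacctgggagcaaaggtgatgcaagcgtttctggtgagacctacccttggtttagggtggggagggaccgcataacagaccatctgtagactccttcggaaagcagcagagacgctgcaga
RefSeq windows were found for 8 of the 10 genes, 14 windows in all, and EPCAM and CDH3 are named only. An E-box stood in 6 of the 14 windows, which belong to CLDN7, OCLN, TJP1, DSG2 and DSC2, with 12 matches in all, and in 20.6% of 35116 windows of the same length across genes. The CLDN7 window above holds 5 of them, beginning at positions -174, -135, -20, -9 and 6 from the start. The windows of CLDN1, CLDN4 and DSG3 hold none. The TEAD motif GGAATG, searched on both strands and found in 14.03% of all windows, and the grainyhead-like motif AACCGGTT, which reads the same on both strands, found in 0.134%, were in none of the 14. No motif overlapped another in a shown window. The core of the interferon-stimulated response element was in 1 of the 14, the other CLDN7 window, and in 3.57% of all windows. These matches describe letters in a window and no binding was measured.

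Against the control arrays, the tight junction membrane genes and EPCAM were mostly higher, DSG3 was lower in the shLATS-labelled groups, and CDH3 and DSC2 were not called. Called means an adjusted p under 0.05 in limma, adjusted over all 18405 genes, and a log2 change of 1 is a 2-fold difference. Of the 10 genes, CLDN4 lay at percentile 35.7 of gene means and the others at 89.9 to 98.1. The shares of all genes given here include dim genes and are not matched for brightness. In the arrays labelled shLATS1B, CLDN1, CLDN4, OCLN/OCLNP1 and EPCAM rose and DSG3 fell, so 5 of the 10 genes were called, where 24% of all genes were. In the arrays labelled shLATS1+2, the same 5 genes changed in the same directions, CLDN7 also rose and TJP1 fell, giving 7 of 10 against 24.8% of all genes. With YAP/TAZ and ESR1 cDNA together, CLDN1, CLDN4, OCLN/OCLNP1 and EPCAM rose and none fell, 4 of 10 against 29.4%. With YAP/TAZ cDNA alone only CLDN1 was called, 1 of 10 against 7%, and with ESR1 cDNA alone CLDN1, CLDN4, CLDN7 and OCLN/OCLNP1 rose and DSG2 fell, 5 of 10 against 19%. That count was 2 in a fit of the compared arrays alone. The median log2 change of the 10 genes was 0.11, 0.11, 0.13, 0.095 and 0.12 in these 5 comparisons, in the order given, beside -0.0059, -0.0079, -0.0043, -0.00089 and 0.0021 over all genes. Of all genes called, 51.8%, 47.6%, 49.9% and 37.2% were higher in the arrays labelled shLATS1B, shLATS1+2, YAP/TAZ ESR1 and ESR1, and 31.8%, 32.7%, 32.1% and 21.9% with arrays centred on their medians. The split of the 10 genes then stayed at 4 higher and 1 lower and at 5 higher and 2 lower in the shLATS-labelled groups, and was 4 and 1 with both cDNAs and 3 and 2 with ESR1 alone. The count with YAP/TAZ cDNA was 2 without control array 1 and 3 without ESR1 array 1. The 5 comparisons share the same 3 control arrays. In a mixed RNA sample, fewer cells of a type and less RNA per cell cannot be told apart.

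**Figure D1:**
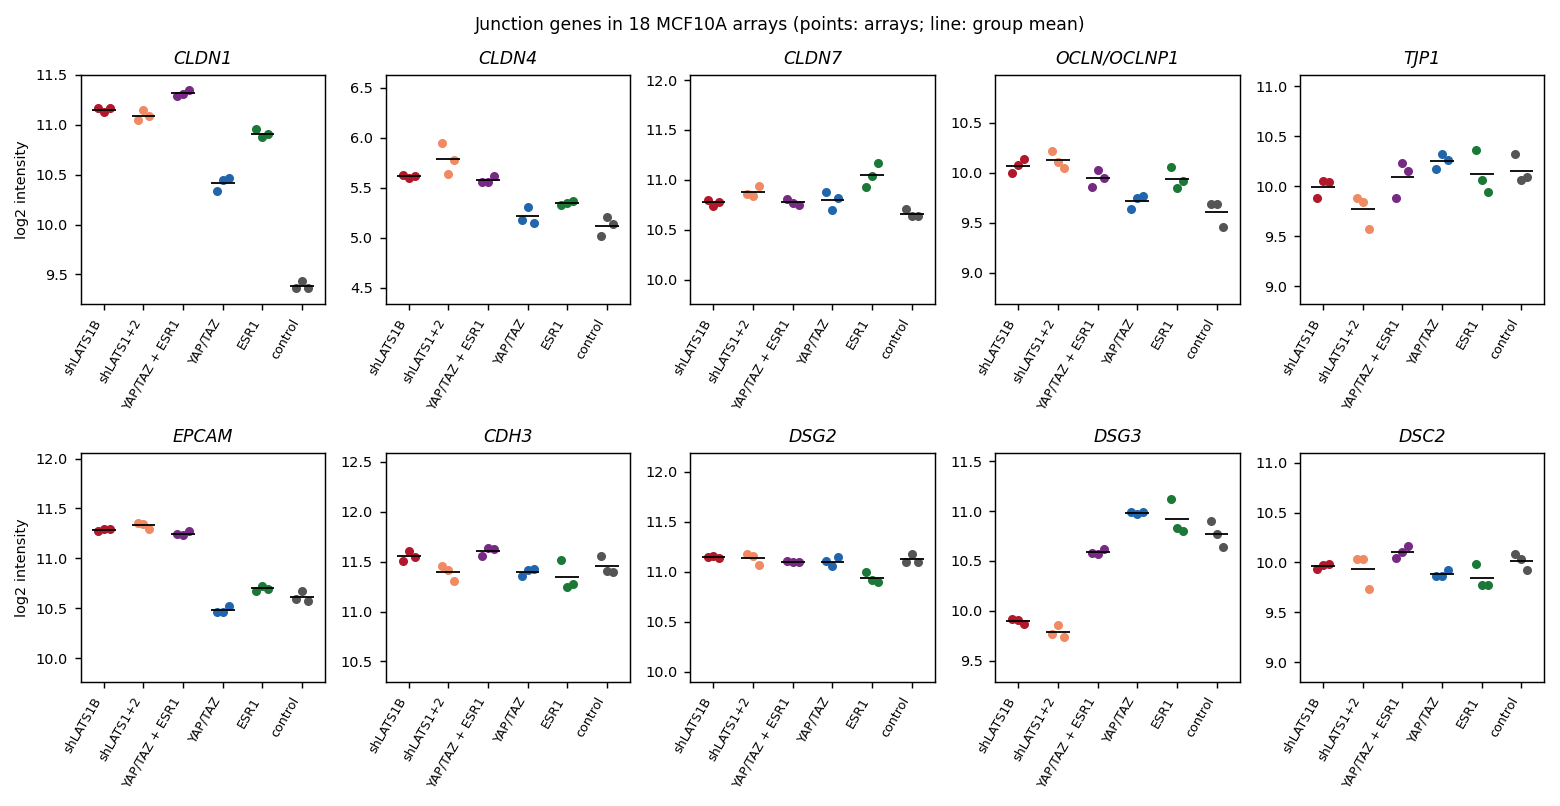
Log2 intensity (vertical axes, each spanning the same number of log2 units) of each junction gene by group; points are arrays and lines are group means. CLDN1 is lowest in the control arrays, at 9.36 to 9.44, and DSG3 is lowest in the arrays labelled shLATS1B and shLATS1+2, at 9.74 to 9.92.

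CLDN1, a strand-forming claudin that tightens the barrier, varied most of the 10. It read 11.17, 11.12 and 11.17 in the arrays labelled shLATS1B, 11.05, 11.14 and 11.08 in those labelled shLATS1+2, and 11.29, 11.31 and 11.34 in those labelled YAP/TAZ ESR1. It read 10.34, 10.44 and 10.47 with YAP/TAZ cDNA and 10.95, 10.88 and 10.90 with ESR1 cDNA, against 9.36, 9.44 and 9.37 in the control arrays. Every array of the other 5 groups lay above every control array. The rise was 3.39-fold in the arrays labelled shLATS1B (log2 change 1.76, SE 0.0441, adjusted p = 4.69e-14), and 3.25-fold in those labelled shLATS1+2 (adjusted p = 7.3e-14). It was 3.80-fold with both cDNAs (adjusted p = 8.56e-15), 2.87-fold with ESR1 alone (adjusted p = 6.36e-13) and 2.04-fold with YAP/TAZ alone (adjusted p = 1.28e-10). Ordered by mean, the groups ran from YAP/TAZ ESR1 through shLATS1B, shLATS1+2, ESR1 and YAP/TAZ to control. Neighbours in this order differed at an adjusted p under 0.05, except the 2 shLATS-labelled groups (adjusted p = 0.56). The range of its 6 group means was at percentile 99.3 of all genes.

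CLDN4, a claudin known as a receptor of Clostridium perfringens enterotoxin, was dim, and its control mean of 5.12 lay below the dim cutoff. It read 5.62, 5.60 and 5.62 in the arrays labelled shLATS1B, 5.95, 5.64 and 5.78 in those labelled shLATS1+2, and 5.56, 5.56 and 5.62 in those labelled YAP/TAZ ESR1. It read 5.18, 5.31 and 5.15 with YAP/TAZ cDNA and 5.33, 5.35 and 5.37 with ESR1 cDNA, against 5.02, 5.21 and 5.14 in the control arrays. Arrays of the shLATS-labelled and double-cDNA groups all lay above the control arrays, and those with YAP/TAZ cDNA overlapped them. The log2 changes were 0.49 (adjusted p = 3.31e-05), 0.67 (adjusted p = 1.18e-06) and 0.46 (adjusted p = 5.33e-05) in the arrays labelled shLATS1B, shLATS1+2 and YAP/TAZ ESR1. With ESR1 cDNA the change was 0.23 (adjusted p = 0.0254). That call was lost when arrays were centred on their medians (adjusted p = 0.0883), after quantile normalization (0.0684), in a fit of the compared arrays alone (0.0891), and without control array 1 (0.113) or 3 (0.0502) or ESR1 array 2 (0.0716) or 3 (0.082).

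CLDN7, the claudin that binds EPCAM, was highest with ESR1 cDNA. It read 10.80, 10.74 and 10.78 in the arrays labelled shLATS1B, 10.86, 10.84 and 10.94 in those labelled shLATS1+2, and 10.81, 10.77 and 10.75 in those labelled YAP/TAZ ESR1. It read 10.88, 10.70 and 10.82 with YAP/TAZ cDNA and 10.93, 11.04 and 11.17 with ESR1 cDNA, against 10.71, 10.64 and 10.64 in the control arrays. The arrays labelled shLATS1B, shLATS1+2, YAP/TAZ ESR1 and ESR1 all lay above the control arrays, while those labelled YAP/TAZ overlapped them. By limma the arrays labelled ESR1 did not differ from the next group, shLATS1+2 (0.17 higher on the log2 scale, adjusted p = 0.0562). CLDN7 rose 1.30-fold with ESR1 cDNA (log2 change 0.38, SE 0.0582, adjusted p = 0.0002). The log2 change of 0.22 in the arrays labelled shLATS1+2 (adjusted p = 0.0108) was lost without array 3 of that group (adjusted p = 0.0549). After quantile normalization CLDN7 was also called as higher in the arrays labelled shLATS1B (adjusted p = 0.0352) and YAP/TAZ ESR1 (0.0231).

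OCLN/OCLNP1, for occludin and its pseudogene, followed CLDN1 in direction. It read 10.001, 10.08 and 10.13 in the arrays labelled shLATS1B, 10.22, 10.11 and 10.05 in those labelled shLATS1+2, and 9.86, 10.03 and 9.95 in those labelled YAP/TAZ ESR1. It read 9.63, 9.75 and 9.77 with YAP/TAZ cDNA and 10.06, 9.85 and 9.92 with ESR1 cDNA, against 9.69, 9.69 and 9.45 in the control arrays. Only the YAP/TAZ arrays overlapped the control arrays. It rose 1.38-fold in the arrays labelled shLATS1B (adjusted p = 0.000161), 1.43-fold in those labelled shLATS1+2 (adjusted p = 5.5e-05), 1.26-fold with both cDNAs (adjusted p = 0.00205) and 1.26-fold with ESR1 alone (adjusted p = 0.00444). The ESR1 call was lost in a fit of the compared arrays alone (adjusted p = 0.0779).

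TJP1, the plaque scaffold, averaged 9.99 ± 0.097, 9.77 ± 0.17, 10.09 ± 0.19, 10.26 ± 0.075 and 10.12 ± 0.22 in the arrays labelled shLATS1B, shLATS1+2, YAP/TAZ ESR1, YAP/TAZ and ESR1, against 10.16 ± 0.14 in the control arrays (SD, n = 3 each). It read 9.89, 9.85 and 9.57 in the arrays labelled shLATS1+2, against 10.32, 10.06 and 10.09 in the control arrays. These arrays did not overlap, and TJP1 fell by 0.39 on the log2 scale (adjusted p = 0.0191). Leaving out control array 1 (adjusted p = 0.0953) or array 3 of the group labelled shLATS1+2 (adjusted p = 0.106) ended the call.

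EPCAM, an epithelial adhesion molecule, split the groups into a high and a low set. It read 11.27, 11.30 and 11.29 in the arrays labelled shLATS1B, 11.35, 11.34 and 11.29 in those labelled shLATS1+2, and 11.24, 11.23 and 11.27 in those labelled YAP/TAZ ESR1. It read 10.46, 10.46 and 10.52 with YAP/TAZ cDNA and 10.68, 10.72 and 10.70 with ESR1 cDNA, against 10.59, 10.68 and 10.57 in the control arrays. The 9 arrays of the high set all lay above the 9 of the low set, along the same division as the first principal component. EPCAM rose 1.60-fold in the arrays labelled shLATS1B (log2 change 0.67, SE 0.0388, adjusted p = 1.23e-09), 1.64-fold in those labelled shLATS1+2 (adjusted p = 6.81e-10) and 1.55-fold with both cDNAs (adjusted p = 1.92e-09). Its log2 change was -0.13 with YAP/TAZ alone (adjusted p = 0.0517) and 0.085 with ESR1 alone (adjusted p = 0.148). A second EPCAM probe set, examined after the data had been seen, gave log2 changes of 0.80, 0.84 and 0.83 in the same 3 groups. The YAP/TAZ change was called as a fall when arrays were centred on their medians (adjusted p = 0.0354) and without ESR1 array 1 (0.0488), and the ESR1 change as a rise after quantile normalization (0.11, adjusted p = 0.0415).

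DSG3, a desmoglein of basal keratinocytes, fell in the shLATS-labelled groups. It read 9.92, 9.91 and 9.87 in the arrays labelled shLATS1B, 9.77, 9.86 and 9.74 in those labelled shLATS1+2, and 10.58, 10.57 and 10.62 in those labelled YAP/TAZ ESR1. It read 10.99, 10.97 and 10.99 with YAP/TAZ cDNA and 11.12, 10.82 and 10.80 with ESR1 cDNA, against 10.90, 10.77 and 10.64 in the control arrays. The 6 shLATS-labelled arrays lay below every other array. DSG3 fell by 0.87 on the log2 scale in the arrays labelled shLATS1B (1.83-fold, SE 0.0743, adjusted p = 1.64e-07) and by 0.98 in those labelled shLATS1+2 (1.97-fold, adjusted p = 3.8e-08). With both cDNAs the log2 change was -0.18 (adjusted p = 0.0833), and a test of the shLATS-labelled groups against that group gave -0.69 (adjusted p = 8.38e-06) for the arrays labelled shLATS1B and -0.80 (adjusted p = 1.5e-06) for those labelled shLATS1+2. The log2 change with both cDNAs was called when arrays were centred on their medians (-0.25, adjusted p = 0.0169), without control array 3 (-0.25, adjusted p = 0.0286) and without ESR1 array 1 (-0.18, adjusted p = 0.0166). With YAP/TAZ cDNA the change of 0.21 (adjusted p = 0.118) was called with array weights (0.25, adjusted p = 0.00615) and without control array 1 (0.28, adjusted p = 0.041) or ESR1 array 1 (0.21, adjusted p = 0.0207).

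DSG2, the most widely expressed desmoglein, averaged 11.15 ± 0.0096, 11.13 ± 0.063, 11.10 ± 0.0067, 11.10 ± 0.046 and 10.94 ± 0.052 in the arrays labelled shLATS1B, shLATS1+2, YAP/TAZ ESR1, YAP/TAZ and ESR1, against 11.13 ± 0.045 in the control arrays (SD, n = 3 each). It fell by 0.19 on the log2 scale with ESR1 cDNA (adjusted p = 0.00595), where all 3 arrays lay below the control arrays. That call was lost in a fit of the compared arrays alone (adjusted p = 0.11). CDH3, a cadherin of the adherens junction, averaged 11.55 ± 0.052, 11.39 ± 0.079, 11.61 ± 0.043, 11.40 ± 0.041 and 11.35 ± 0.15 in the same order, against 11.45 ± 0.092 in the control arrays. DSC2, the partner cadherin of desmogleins, averaged 9.96 ± 0.027, 9.94 ± 0.18, 10.11 ± 0.059, 9.88 ± 0.034 and 9.84 ± 0.13, against 10.02 ± 0.082 in the control arrays. Neither CDH3 nor DSC2 was called in any group against the control arrays in the fit of all arrays at equal weight on the deposited scale. With array weights CDH3 was called with both cDNAs (adjusted p = 0.00893) and DSC2 with ESR1 (0.0354), and centring on array medians also called DSC2 with ESR1 (0.048). Without ESR1 array 1, CDH3 was called with ESR1 (adjusted p = 0.0221) and with both cDNAs (0.0388), and DSC2 with ESR1 (0.0217). CDH3 with both cDNAs was also called without control array 1 (adjusted p = 0.043), and DSC2 with ESR1 without array 3 of the group labelled shLATS1+2 (adjusted p = 0.0481). In the fit of all arrays at equal weight on the deposited scale, the 95% intervals of the changes against control spanned -0.25 to 0.30 for CDH3. For DSC2 they spanned -0.34 to 0.25 on the log2 scale.

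**Figure D2:**
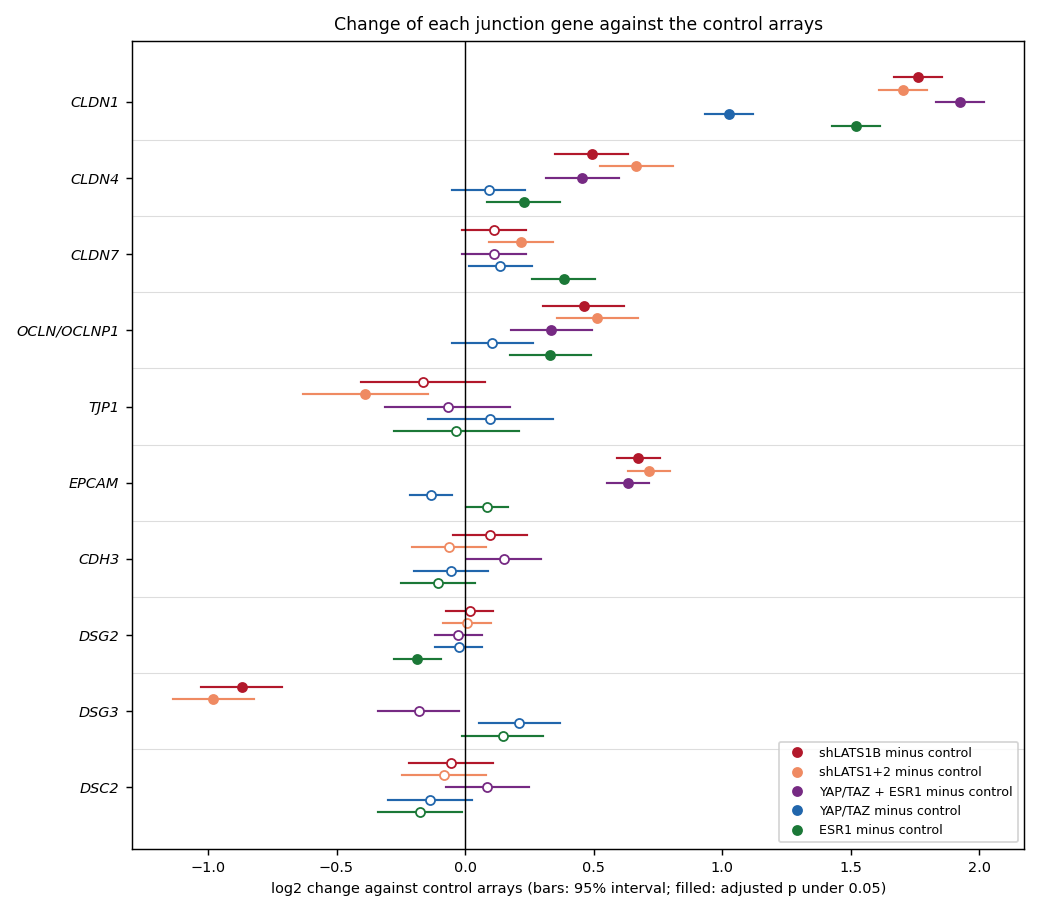
Log2 change of each junction gene (rows) against the control arrays (horizontal axis), with its 95% interval; colours are the 5 groups and filled points have an adjusted p under 0.05. CLDN1 is to the right of 0 in all 5 groups, at 1.03 to 1.92, and DSG3 is at -0.87 and -0.98 in the shLATS-labelled groups.

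The shLATS-labelled groups were set against each other and against the double-cDNA group. Between the arrays labelled shLATS1+2 and shLATS1B, 0 of the 10 genes were called by limma, where 0.321% of all genes were, and 2 had an unadjusted p under 0.05. The count was 0 under each alternative run. The log2 differences lay between -0.22 for TJP1 and 0.17 for CLDN4, with 95% intervals of -0.47 to 0.02 and 0.03 to 0.32. The arrays labelled shLATS1B differed from those labelled YAP/TAZ ESR1 in 2 genes, CLDN1 and DSG3, against 11.1% of all genes. Those labelled shLATS1+2 differed from the same group in 4 genes, against 19.8%, with CLDN4 higher and CLDN1, CDH3 and DSG3 lower. Over the 10 genes, 8 of 50 pairs of groups that neighbour each other in the order of means differed, where 3.78% of such pairs did over all genes. The count was 6 without array 3 of the double-cDNA group and 11 without ESR1 array 1.

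The shNT arrays with both, either or neither cDNA asked whether the effect of ESR1 cDNA depended on YAP/TAZ cDNA. Comparisons of the double-cDNA group with either single-cDNA group cross the division on the first principal component. Any difference in handling and the effect of the added cDNA cannot be told apart there. Compared with the arrays labelled YAP/TAZ, those labelled YAP/TAZ ESR1 were higher for CLDN1, EPCAM, CLDN4, OCLN/OCLNP1, CDH3 and DSC2 and lower for DSG3. This was 7 of 10 genes, against 22.7% of all genes. The count was 4 with arrays centred on their medians, where 41.4% of all genes called were higher instead of 54.0%. It was also 4 without YAP/TAZ array 1 or 2 or array 2 or 3 of the double-cDNA group, and the calls lost among these settings were those of OCLN/OCLNP1 (adjusted p = 0.0331), CDH3 (0.0367) and DSC2 (0.0472). The DSC2 call was lost also with the replicate number as a block (adjusted p = 0.0541), without YAP/TAZ array 3 (0.073), where CDH3 was lost too (0.0665), without control array 2 (0.057) and without any 1 array labelled shLATS1B (0.0585 to 0.0603). Compared with the arrays labelled ESR1, those labelled YAP/TAZ ESR1 were higher for CLDN1, EPCAM, CLDN4, CDH3, DSG2 and DSC2 and lower for CLDN7 and DSG3. This was 8 of 10 genes, against 29.1% of all genes, and 5 in a fit of the compared arrays alone. Of these, CLDN4 was lost without array 3 of the double-cDNA group (adjusted p = 0.0692), and CDH3 (0.0535), DSG2 (0.0517) and DSC2 (0.0761 and 0.075) without ESR1 array 2 or 3, DSC2 also without double-cDNA array 3 (0.0714). Arrays labelled ESR1 were higher than those labelled YAP/TAZ for CLDN1 and EPCAM, 2 of 10 against 0.603%. The second EPCAM probe set gave a log2 difference of 0.25 there, which was not called by limma (adjusted p = 0.181). The interaction, the ESR1 change with YAP/TAZ cDNA minus the ESR1 change without it, was called for 7 of 10 genes against 19.1%.

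EPCAM had the largest positive interaction of the 10. Its log2 change with ESR1 was 0.77 in cells with YAP/TAZ cDNA (SE 0.0388, adjusted p = 4.58e-10), against 0.085 in cells without it, a difference of 0.68 (adjusted p = 2.12e-07). The second EPCAM probe set gave 0.80 (adjusted p = 7.27e-05). For CLDN1 the ESR1 change was 0.90 with YAP/TAZ cDNA, against 1.52 without it, a difference of -0.62 (SE 0.0623, adjusted p = 2.52e-06), so the rises with each cDNA added to less than their sum on the log2 scale. For CLDN7 it was -0.025 with YAP/TAZ cDNA, against 0.38 without it (difference -0.41, adjusted p = 0.00222). For DSG3 it was -0.39 with YAP/TAZ cDNA, against 0.15 without it (difference -0.54, adjusted p = 0.00172).

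DSC2, CDH3 and DSG2 had smaller positive interactions. The ESR1 change of DSC2 was 0.22 with YAP/TAZ cDNA, against -0.18 without it (difference 0.40, adjusted p = 0.0168). That of CDH3 was 0.21 with YAP/TAZ cDNA, against -0.11 without it (difference 0.31, adjusted p = 0.0311). That of DSG2 was -0.0011 with YAP/TAZ cDNA, against -0.19 without it (difference 0.19, adjusted p = 0.044). The CDH3 call was lost in a fit of the compared arrays alone (adjusted p = 0.0611) and without control array 1, YAP/TAZ array 1, ESR1 array 2 or 3 or double-cDNA array 2 or 3 (0.0693 to 0.0895). The DSG2 call was lost with centred arrays (0.0541), brighter genes only (0.0583), the replicate block (0.0584), trend and robust moderation (0.0591) and the compared arrays alone (0.0785). It was also lost without any 1 array labelled shLATS1B or YAP/TAZ ESR1, control array 1 or 2, YAP/TAZ array 1 or 2, ESR1 array 2 or 3 or shLATS1+2 array 2 (0.0519 to 0.111). For CLDN4, OCLN/OCLNP1 and TJP1 the differences were 0.14, -0.10 and -0.13, with 95% intervals of -0.06 to 0.34, -0.32 to 0.12 and -0.48 to 0.21.

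**Figure D3:**
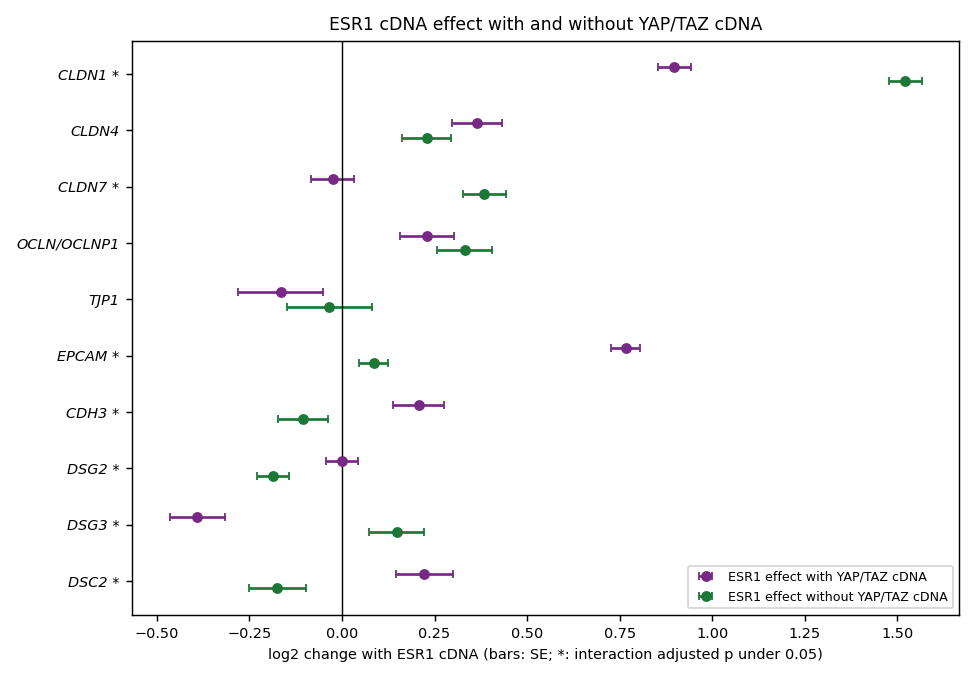
Log2 change with ESR1 cDNA (horizontal axis, bars are SE) for each junction gene (rows), in cells with YAP/TAZ cDNA (upper point) and without it (lower point); an asterisk marks an interaction with an adjusted p under 0.05. EPCAM stands at 0.77 with YAP/TAZ cDNA, against 0.085 without it, and CLDN1 at 0.90, against 1.52.

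Some of the 10 genes varied together over the 18 arrays, which share 6 groups and the deposited scaling. Pearson's r was 0.91 between CLDN4 and EPCAM, 0.82 between CLDN1 and OCLN/OCLNP1, 0.84 between CDH3 and DSC2, and -0.85 between DSG3 and EPCAM. Among all genes, those most like CLDN1 were OASL, RIGI and IRF9 (r = 0.981, 0.980 and 0.980). Those most like EPCAM were PDP1, TMC5 and INSIG1 (r = 0.988, 0.982 and 0.982), and those most like DSG3 were ALDH1L2, SLC71A2 and ENTPD7 (r = 0.980, 0.972 and 0.969). TAF9B, TCAIM and CLIP4 were most like CLDN4 (r = 0.955, 0.941 and 0.938).

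The rest of the junction machinery was described from 7 lists. Their counts stand beside the shares of all genes called, 24%, 24.8% and 29.4% in the arrays labelled shLATS1B, shLATS1+2 and YAP/TAZ ESR1. These shares were 7% with YAP/TAZ cDNA and 19% with ESR1 cDNA. For the other claudins and tight junction membrane proteins, the called share lay below these in each group. Of 27 other claudins and tight junction membrane proteins, 3 rose and 1 fell in the arrays labelled shLATS1B, 2 rose in those labelled shLATS1+2, 5 rose with both cDNAs, 0 were called by limma with YAP/TAZ cDNA (4 with an unadjusted p under 0.05) and 2 rose with ESR1 cDNA. CXADR, a membrane protein of tight junctions and the adenovirus receptor, led them in the shLATS-labelled and double-cDNA groups at 2.76-fold (adjusted p = 2.22e-09), 2.84-fold (1.76e-09) and 1.99-fold (2e-07) in the arrays labelled shLATS1B, shLATS1+2 and YAP/TAZ ESR1. CLDN12 fell 1.22-fold in the arrays labelled shLATS1B (adjusted p = 0.0158). Of 22 plaque and polarity proteins, 7 rose in the arrays labelled shLATS1B, 6 rose in those labelled shLATS1+2, 7 rose and 1 fell with both cDNAs, 1 rose and 1 fell with YAP/TAZ cDNA, and 4 rose and 5 fell with ESR1 cDNA. TJP3, a relative of TJP1, rose 2.39-fold (adjusted p = 1.35e-07), 2.42-fold (1.13e-07) and 2.43-fold (7.19e-08) in the arrays labelled shLATS1B, shLATS1+2 and YAP/TAZ ESR1. AMOTL2, an angiomotin family member that binds YAP, rose 1.58-fold, 1.63-fold, 1.71-fold, 1.57-fold and 2.01-fold in the arrays labelled shLATS1B, shLATS1+2, YAP/TAZ ESR1, YAP/TAZ and ESR1.

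Of 13 other desmosome genes, 2 rose and 1 fell in the arrays labelled shLATS1B, 1 rose and 3 fell in those labelled shLATS1+2, 3 rose with both cDNAs, and 1 rose with each cDNA alone. Of all genes, 24%, 24.8%, 29.4%, 7% and 19% were called in these groups, and this list lay near or below those shares. PPL (periplakin, a linker to the cornified envelope) rose in all 5, by 2.13-fold, 1.91-fold, 2.46-fold, 1.46-fold and 1.88-fold in the same order of groups as above. JUP, the plaque protein plakoglobin, rose 1.35-fold in the arrays labelled shLATS1B (adjusted p = 0.00884) and 1.50-fold with both cDNAs (adjusted p = 0.000678). DSC3, the desmocollin of basal layers, fell 1.28-fold and 1.41-fold in the arrays labelled shLATS1B and shLATS1+2 (adjusted p = 0.0124 and 0.000934). Of 14 adherens junction genes, 7 rose and 1 fell, 6 rose and 3 fell, 6 rose and 2 fell, 1 rose and 2 fell, and 3 rose and 4 fell in the 5 groups. AJUBA, a LIM protein that binds LATS kinases, rose 1.83-fold, 1.60-fold and 1.80-fold in the arrays labelled shLATS1B, shLATS1+2 and YAP/TAZ ESR1. CDH2 (N-cadherin) fell 1.49-fold, 1.58-fold, 1.31-fold and 1.45-fold in the arrays labelled shLATS1+2, YAP/TAZ ESR1, YAP/TAZ and ESR1. It was 1.34-fold lower in the arrays labelled shLATS1+2 than in those labelled shLATS1B (adjusted p = 0.0232).

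Of 5 connexins, 1 rose and 1 fell in the arrays labelled shLATS1B, 1 fell in those labelled shLATS1+2 and 0 were called with both cDNAs. With YAP/TAZ cDNA 2 of the 5 fell, and with ESR1 cDNA 1 fell. Of all genes, 24%, 24.8%, 29.4%, 7% and 19% were called in these groups. GJB2 fell 1.18-fold with YAP/TAZ cDNA and 1.33-fold with ESR1 cDNA (limma, adjusted p = 0.0202 and 0.000148). Of 10 genes for EPCAM partners and proteases, 6 rose and 1 fell, 5 rose and 2 fell, and 5 rose and 1 fell in the arrays labelled shLATS1B, shLATS1+2 and YAP/TAZ ESR1, and 2 rose with YAP/TAZ cDNA and 2 rose and 2 fell with ESR1 cDNA. The shares of all genes called were 24%, 24.8%, 29.4%, 7% and 19%, in the same order. SPINT1 and SPINT2, inhibitors of the protease matriptase, rose 1.56-fold and 1.46-fold in the arrays labelled shLATS1B. The tetraspanin CD9 rose 1.55-fold there.

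Of 20 regulators of junction genes, 3 rose and 6 fell, 3 rose and 9 fell, 3 rose and 7 fell, 2 rose, and 4 rose and 2 fell in the 5 groups in the same order. Beside them, 24%, 24.8%, 29.4%, 7% and 19% of all genes were called. SNAI2, an E-box repressor of epithelial genes, fell by 1.41, 1.45 and 1.19 on the log2 scale in the arrays labelled shLATS1B, shLATS1+2 and YAP/TAZ ESR1 (adjusted p = 1.81e-11, 1.31e-11 and 9.32e-11). ELF3, an epithelial ETS factor, rose 4.85-fold, 5.57-fold and 3.98-fold in the same 3 groups. EHF, another epithelial ETS factor, rose in all 5 groups, by 1.33-fold, 1.79-fold, 2.97-fold, 2.83-fold and 3.54-fold in the same order. TFCP2L1, a grainyhead-related factor, fell 2.46-fold, 3.05-fold and 2.76-fold in the arrays labelled shLATS1B, shLATS1+2 and YAP/TAZ ESR1.

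**Figure D4:**
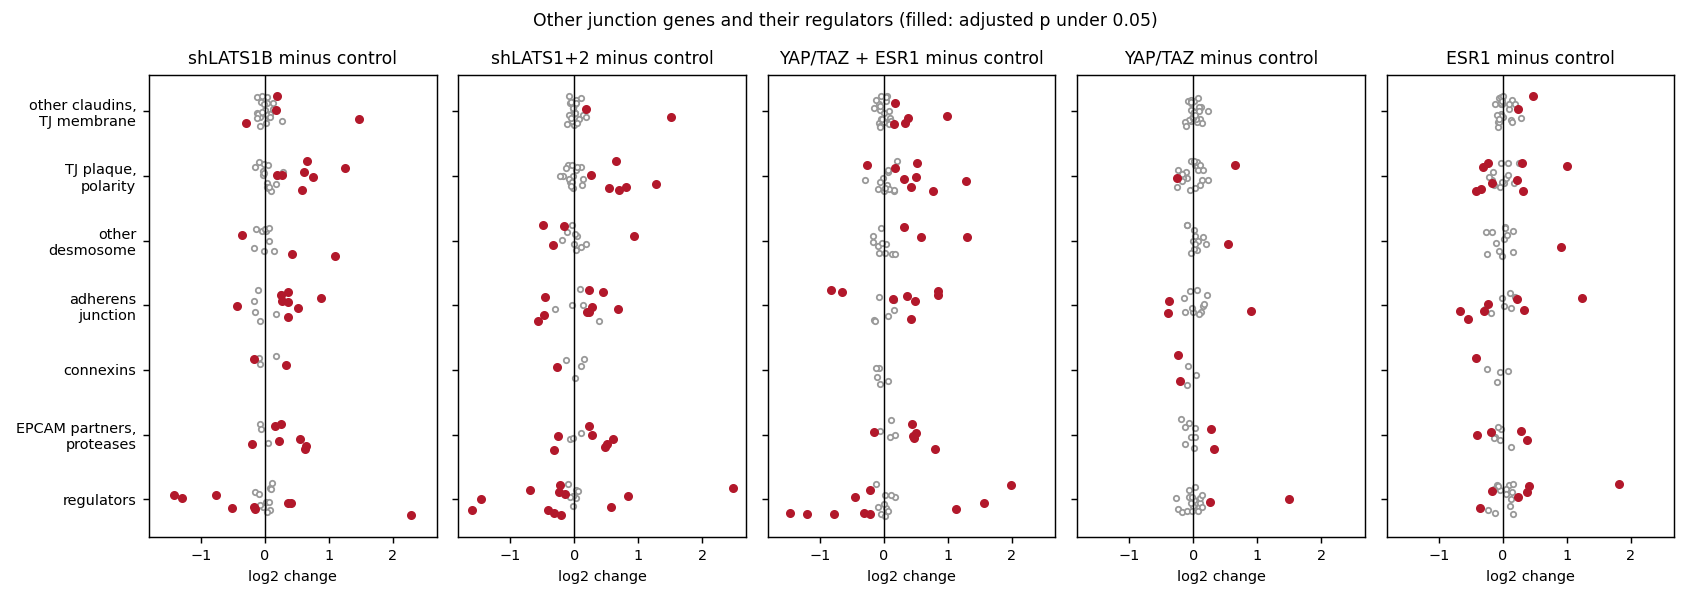
Log2 change against the control arrays (horizontal axes) of the genes of 7 other junction lists (rows); each panel is 1 group, each point is 1 gene, and filled points have an adjusted p under 0.05. Among the regulators ELF3 stands at 2.28, 2.48 and 1.99 in the arrays labelled shLATS1B, shLATS1+2 and YAP/TAZ ESR1, and SNAI2 at -1.41, -1.45 and -1.19.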

How the data were processed

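Gene expression was measured on 18 arrays in 6 groups of 3. The authors deposited log2 probe set intensities, 1 column per array for 32321 probe sets, and made them with the R package affy, per the submitters' processing notes. How background, normalization and summary were handled was not given in the sources used here. The medians of the arrays ran from 5.494 to 5.619, and centring the arrays on them changed some of the counts given above. The platform annotation gave 1 symbol to 19158 probe sets, several to 1388 and none to 11775. Each gene kept its brightest probe set, and the OCLN probe set was kept although it carries 2 symbols.

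Group means of all 18 arrays were fitted with limma 3.58.1 in R 4.3.3 (lmFit, contrasts.fit, eBayes), with Benjamini-Hochberg adjustment over 18405 genes, and an adjusted p under 0.05 was called. The procedure was tested on simulated data. The dim cutoff is percentile 30 of gene means. Nothing in the labels says that replicates came from separate cultures, so a p-value reflects only how these samples spread, which may be technical, and 3 arrays per group limit the precision.

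The 10 genes and the lists were chosen with earlier results of these data known. Of each other list, up to 4 called genes with the largest change per comparison could be named, and a gene so named is given in other groups too. The 3 genes with the highest Pearson's r to a member are given for the 4 members with the widest range of group means. The alternatives were centring or quantile normalization of arrays, array weights, trend and robust moderation, brighter genes only, the mean of a gene's probe sets, a fit of the compared arrays alone, a 1.5-fold minimum, the replicate number as a block and leaving out each array. Promoter windows were searched for 4 motifs.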

Additional observations from a re-analysis of the deposited data

Results flagged for a closer look

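For 7 of the 10 junction genes the ESR1 cDNA effect differed between cells with and without YAP/TAZ cDNA, by the interaction term of the limma model over all genes. That term was called for 19.1% of all genes. The CDH3 and DSG2 calls were lost in a fit of the compared arrays alone (adjusted p = 0.0611 and 0.0785) and without several single arrays. With a 1.5-fold minimum, 2 genes were called. The difference of the log2 changes, with YAP/TAZ cDNA minus without it, was 0.68 for EPCAM, 0.40 for DSC2, 0.31 for CDH3 and 0.19 for DSG2. It was -0.62 for CLDN1, -0.54 for DSG3 and -0.41 for CLDN7. CLDN1 was higher with ESR1 cDNA in both settings, while for EPCAM the ESR1 change was called in the cells with YAP/TAZ cDNA and did not pass the test in those without it, except after quantile normalization (0.11, adjusted p = 0.0415). All arrays of the double-cDNA group lie on the other side of the first principal component from the arrays with 1 or no added factor, and the part of that division in these differences was not tested.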

How the results depend on the processing

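No called value of the 10 genes reversed its sign. Of 44 called values, 30 kept their call under every alternative apart from the 1.5-fold minimum, and 15 reached 1.5-fold. With that minimum the counts of called genes were 3 for shLATS1B, 4 for shLATS1+2, 2 for YAP/TAZ ESR1 and 1 for ESR1, each against control, 2 for YAP/TAZ ESR1 against YAP/TAZ, 0 for YAP/TAZ ESR1 against ESR1, 2 for the interaction and 2 for the neighbours in the order of levels, because fewer genes could pass. Centring gave 2 for YAP/TAZ against control and 4 for YAP/TAZ ESR1 against YAP/TAZ. Array weights gave 2 for YAP/TAZ against control. Only the arrays compared, a fit with fewer samples, gave 2 for ESR1 against control and 5 for YAP/TAZ ESR1 against ESR1, and was not run for the neighbours.

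Leaving out 1 array at a time gave 5 to 5 called genes for shLATS1B, 5 to 7 for shLATS1+2, 4 to 6 for YAP/TAZ ESR1, 1 to 3 for YAP/TAZ and 4 to 7 for ESR1, each against control. It gave 0 to 0 between the shLATS-labelled groups, 4 to 7 for YAP/TAZ ESR1 against YAP/TAZ, 6 to 8 against ESR1, 5 to 7 for the interaction and 6 to 11 for the neighbours. The cause of these shifts was not tested.

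The replicate numbers did not pair the arrays throughout. Over 45 pairs of same-numbered arrays the deviations from group means correlated between -0.694 and 0.631, with a median of -0.0833, and 13 exceeded 0.1. Among the groups labelled shLATS1+2, ESR1 and control, same-numbered arrays 1 and 3 correlated at 0.408 to 0.631 and arrays 2 at -0.347 to -0.0734. What these arrays share was not tested. With the replicate block, 5, 7, 4, 1 and 5 genes were called against control in the arrays labelled shLATS1B, shLATS1+2, YAP/TAZ ESR1, YAP/TAZ and ESR1, 0 between the shLATS-labelled groups, 6 and 8 for YAP/TAZ ESR1 against YAP/TAZ and against ESR1, 6 for the interaction and 8 for the neighbours. The block ended the DSC2 call of YAP/TAZ ESR1 against YAP/TAZ (adjusted p = 0.0541) and the DSG2 interaction (adjusted p = 0.0584), and ended no other call of the 10 genes.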

Other observations

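The interaction of the cDNAs was also tested for the genes of the other junction lists. Of 22 plaque and polarity genes 7 had a positive and 2 a negative difference, of 14 adherens junction genes 5 and 2, of 10 EPCAM partners and proteases 6 and 0, of 20 regulators 4 and 6, of 13 other desmosome genes 1 and 0, of 27 other tight junction membrane genes 1 and 1, and of 5 connexins 1 and 0, where 19.1% of all genes were called. ELF3 had a difference of 1.74 (adjusted p = 1.1e-06) and SNAI2 of -1.36 (adjusted p = 4.8e-09). EHF, which rose with each cDNA, had -1.75 (adjusted p = 5.42e-09). The adherens junction gene NECTIN1 had 0.91 (adjusted p = 5.83e-05), PLEKHA7, which ties microtubules to adherens junctions, had -1.28 (adjusted p = 0.000529), and the connexin gene GJB2 had 0.73 (adjusted p = 1.7e-05). JUP was the desmosome gene called, at 0.51 (adjusted p = 0.0339).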
